A study of Rattus norvegicus with 9 samples.

Results

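Notch ligands, receptors and targets were followed in the vestibular epithelium of rats exposed to an ototoxic nitrile. The 10 members were Dner, the ligands Jag1, Jag2 and Dll1, the receptors Notch1, Notch2 and Notch3, and the targets Hes1, Hes5 and Hey1. They were taken by gene symbol from a table of 32883 genes, and each symbol matched 1 gene. RNA came from male Long-Evans rats. The IDPN3w and IDPN7w groups drank water with 20 mM of 3,3'-iminodipropionitrile (IDPN) for 3 or 7 weeks, and the Control group drank plain water. Each library came from 1 rat, whose 6 cristae and 2 utricles were pooled, and each group had 3 libraries. The controls included rats killed at each time, but the labels do not tell which, and the ages of these rats were not given. All libraries carried the same batch label. They were made from oligo-dT primed cDNA that was amplified by PCR, without molecular identifiers and without strand information. Totals ran from 31100118 counts in IDPN3w replicate 2 to 46018385 counts in IDPN7w replicate 2.

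Notch receptors are membrane proteins that are cut when a ligand on a neighbouring cell binds them. The released intracellular part enters the nucleus, joins the DNA-binding protein RBPJ and switches on repressors of the Hes and Hey families. In the developing inner ear this exchange between neighbours sets which cells become hair cells and which become supporting cells, and Jag1, Jag2 and Dll1 are among its ligands. Dner encodes a membrane protein with repeats like those of Delta and Notch. It has been described as a noncanonical Notch ligand and is made by hair cells. The question asked of the table was whether the canonical Notch genes moved with Dner.

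Levels are given in CPM, the share of a library's counts that fell to a gene, scaled by the TMM method, which corrects library totals for composition. A gene was called when the adjusted p from the quasi-likelihood test of edgeR was under 0.05 and the fold change was above 1.5. The fit covered 15517 genes that passed a filter on low counts, and 9 of the 10 members were among them. Before any comparison, 3 libraries stood apart. At equal depth, 15474 genes were detected in Control replicate 3, 15485 in IDPN3w replicate 1 and 15387 in IDPN3w replicate 2. The other 6 libraries had between 16826 and 17324 genes detected. No library of IDPN7w was among the 3. Jag1 was lower in these 3 libraries (42.3 to 57.4 CPM) than in the other 6 (63.6 to 131 CPM), without overlap. Notch1 was higher in them, at 217 to 335 CPM against 132 to 192 CPM. Hes1 and Hey1 also separated these libraries from the rest, Hes1 by very little. The share of all tested genes that separate these libraries was not computed, so these separations do not set the members apart. Hes1 was at 34.2 to 38.6 CPM in the 3 libraries and at 6.29 to 34.0 CPM in the others, where the lowest values were those of IDPN7w. Hey1 was at 2.18 to 2.66 CPM and at 2.74 to 4.89 CPM. For these genes, 3-week differences within each set of libraries are therefore given below.

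The regulatory letters of the pathway are shown for Dner and for the targets Hes1 and Hes5, since the comparison turns on whether Dner and canonical targets moved together. RefSeq promoter windows (build GRCr8), which run from 250 bases before to 50 bases after a start, matched 9 of the 10 members, and Jag2 had 2 windows. Both strands were searched for TGGGAA, the core letters of the RBPJ binding motif, and for GTGGGAA, which contains that core. Each stretch below runs from position -150 to position -51 relative to the start, with the matches to the core, or to its complement, in capitals. The stretch of Dner lies at chr9:93350619-93350718 on the minus strand, that of Hes1 at chr11:84213096-84213195 on the minus strand and that of Hes5 at chr5:170804427-170804526 on the plus strand.
Dner: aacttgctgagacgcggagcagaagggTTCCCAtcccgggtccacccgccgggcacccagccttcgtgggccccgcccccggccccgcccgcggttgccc
Hes1: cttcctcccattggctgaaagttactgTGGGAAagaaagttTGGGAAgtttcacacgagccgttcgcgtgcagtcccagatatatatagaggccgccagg
Hes5: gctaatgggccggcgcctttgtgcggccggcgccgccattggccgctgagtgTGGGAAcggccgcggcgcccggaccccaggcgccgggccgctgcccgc

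The Hes1 stretch held 2 matches in the same orientation, which began at positions -123 and -109, and the first of them was part of GTGGGAA. In Hes5 a match began at -98 and another, outside the stretch, at -242, both within GTGGGAA. Dner had 1 match on the opposite strand at -123, without the longer form. Dll1 had a match at -185 on the opposite strand, within GTGGGAA, and another at -82 outside the longer form, and Notch3 had 1 after its start, at position 43. The windows of Jag1, Jag2, Notch1 and Notch2 held none of these letters. Among all 33469 windows, 25.7% held the core at least once, 3.85% held it more than once and 6.29% held GTGGGAA. These matches describe letters and not sites of binding.

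Dner (ENSRNOG00000016640) fell at both exposure times. Its level was 384, 386 and 371 CPM in the 3 controls, 175, 161 and 163 CPM in IDPN3w and 136, 131 and 145 CPM in IDPN7w. The controls lay far above every exposed library, and the IDPN7w libraries all lay below those of IDPN3w. The level was 2.29-fold lower at 3 weeks (log2 fold change -1.19, SE 0.080, adjusted p = 0.000239) and 2.77-fold lower at 7 weeks (log2 fold change -1.47, SE 0.081, adjusted p = 2.43e-05). Dner was chosen with this fall known, and both comparisons used the same controls. Between the exposure times the log2 fold change was -0.28 (SE 0.079), and the adjusted p of 0.181 did not pass the threshold. That adjusted p ran from 0.0100 with DESeq2 to 0.569 over the settings that leave out no single library, and under each of them the fold change was below 1.5. In these bulk samples, fewer cells of a type and less RNA per cell cannot be told apart.

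The 5 genes whose pattern over the 9 libraries was most like that of Dner were Lsamp, Rprm, Adam11, Kcna10 and LOC102551716. Likeness was measured by Pearson's r of log2(CPM + 2), which was 0.993 for Lsamp and 0.986 for LOC102551716. The groups form separate clusters in these genes, so r describes the shared step between groups. Lsamp stood at 91.7 ± 5.06 CPM (SD, n = 3) in controls, 30.7 ± 0.680 CPM in IDPN3w and 25.7 ± 2.66 CPM in IDPN7w. Kcna10, a potassium channel gene, stood at 309 ± 22.1 CPM, 133 ± 13.2 CPM and 104 ± 6.03 CPM in the same order. Dner, Adam11 and Kcna10 were in a list of lowered genes that the study drew up in part from these libraries. Their likeness is therefore not independent evidence. None of the 5 was another Notch member or a gene of the pathway list. With 8 other members and 48 pathway genes among 15517 tested genes, any 5 genes would seldom include one. Their absence therefore does not tell whether Notch genes moved with Dner.

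**Figure D1:**
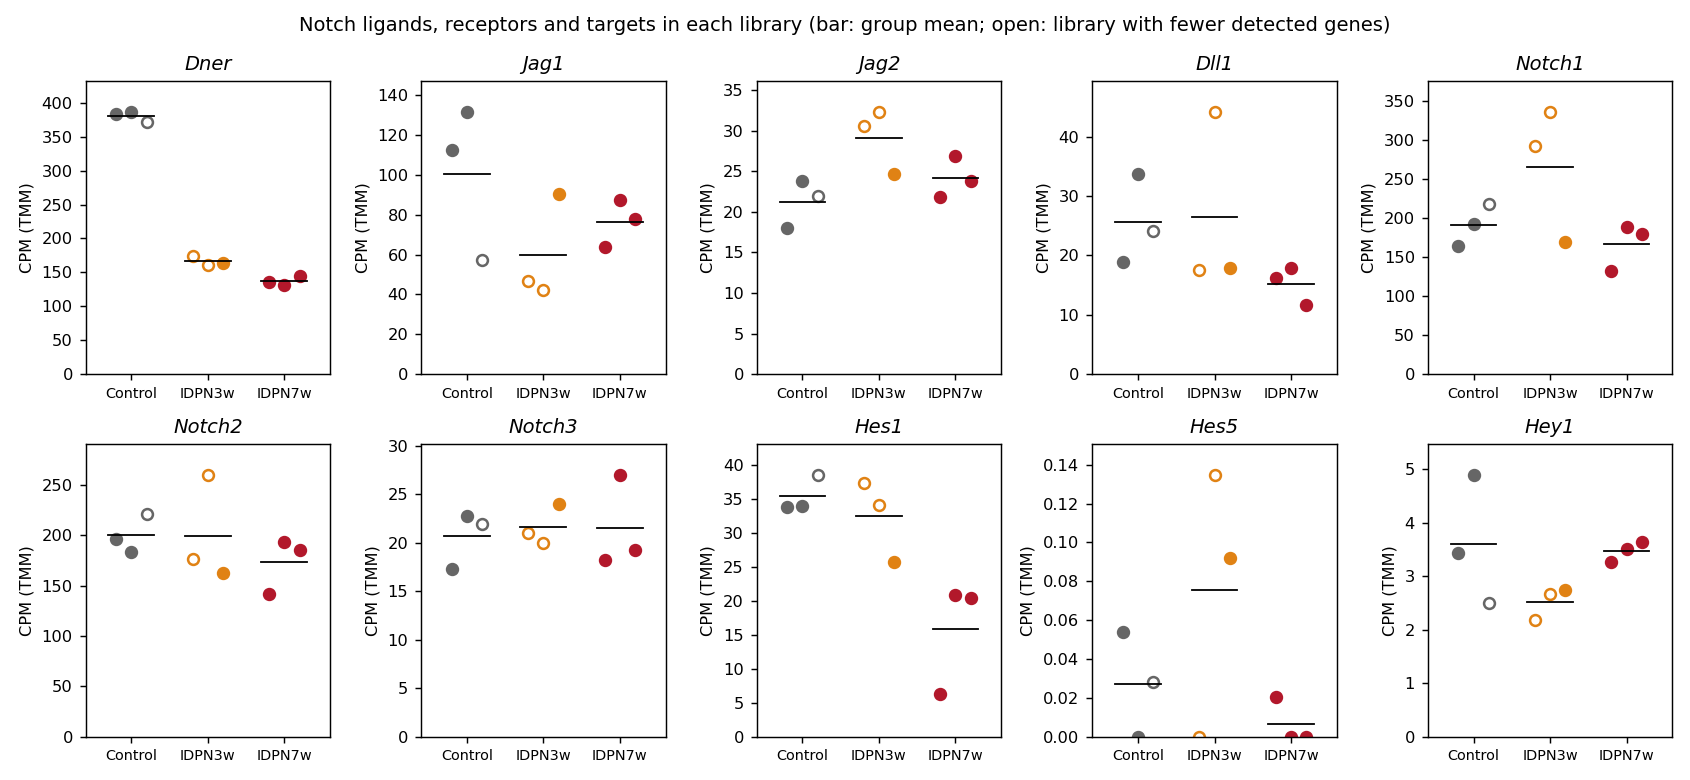
Level of each of the 10 members in CPM (vertical axes, which differ between genes) in every library of Control, IDPN3w and IDPN7w, with group means as bars. Open circles are the 3 libraries with fewer detected genes. Dner separates controls from all exposed libraries, Jag1 and Notch1 follow the open circles, and Hes1 is lowest in IDPN7w.

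At 3 weeks, 1 of the 9 tested members was called, and it was Dner. Over all tested genes 1.65% were called in that comparison, 1.21% lower and 0.438% higher. The groups did not overlap for Dner, which was lower, and for Jag2, which was higher, where 19.6% of all tested genes had groups without overlap. At 7 weeks Dner was again the only member called, against 5.13% of all tested genes, 3.13% lower and 2.00% higher. Dner, Dll1 and Hes1 were each lower in every IDPN7w library than in every control, and 34.3% of all tested genes separated these groups. The median log2 fold change of the tested members was -0.01 at 3 weeks and -0.21 at 7 weeks, beside 0.00 and 0.01 over all tested genes. With DESeq2 the members called were Dner at 3 weeks, and Dner and Hes1 at 7 weeks, beside 5.18% and 8.73% of the genes to which it gave an adjusted p.

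Among the ligands, Jag1 (ENSRNOG00000007443), which is made by vestibular supporting cells, varied with the library set. It was at 113, 131 and 57.4 CPM in controls, 46.7, 42.3 and 90.5 CPM in IDPN3w and 63.6, 87.6 and 77.9 CPM in IDPN7w. The groups overlapped, and the low control and the low IDPN3w libraries were those with fewer detected genes. The fitted log2 fold change was -0.75 (SE 0.338, adjusted p = 0.320) at 3 weeks and -0.40 (SE 0.336, adjusted p = 0.603) at 7 weeks. Neither passed the test. With single libraries left out in turn, the values ran from -1.17 to -0.51 at 3 weeks and from -0.68 to -0.16 at 7 weeks, again without passing. With the library set as a covariate, Jag1 was called lower at 7 weeks (log2 fold change -0.67, adjusted p = 0.0280). Without the 3 libraries it was also called (log2 fold change -0.68, adjusted p = 0.0152), and over all settings other than leaving out single libraries its adjusted p ran from 0.0152 to 0.752. At 3 weeks the difference on the scale of log2(CPM + 2) was -0.35 within the libraries with fewer genes and -0.42 within the other libraries of these groups. It had the same sign within both sets, each of 3 libraries, and was smaller in size than the fitted value.

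Jag2 (ENSRNOG00000013927), a ligand related to Jag1, did not share the direction of Dner. It was at 18.0, 23.8 and 22.0 CPM in controls, 30.6, 32.3 and 24.6 CPM in IDPN3w and 21.9, 26.9 and 23.9 CPM in IDPN7w. Every IDPN3w library lay above every control, although the third one by less than 1 CPM, and IDPN7w overlapped both other groups. At 3 weeks the log2 fold change was 0.46 (SE 0.177, adjusted p = 0.245), which did not pass. The difference was 0.48 within the libraries with fewer genes and 0.23 within the others, on the scale of log2(CPM + 2). At 7 weeks it was 0.19 (SE 0.176, adjusted p = 0.654).

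Dll1 (ENSRNOG00000059984), a Delta-type ligand, stood at 18.9, 33.8 and 24.0 CPM in controls, 17.5, 44.1 and 17.9 CPM in IDPN3w and 16.2, 17.9 and 11.6 CPM in IDPN7w. All IDPN7w libraries were below all controls, while IDPN3w held both the highest library and libraries near the IDPN7w level. The log2 fold change was 0.05 (SE 0.371, adjusted p = 0.973) at 3 weeks and -0.75 (SE 0.373, adjusted p = 0.317) at 7 weeks. The 3-week value rested on IDPN3w replicate 2, without which it was -0.53. No canonical ligand passed the test in either comparison with controls under the planned fit.

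Receptor levels overlapped between the groups. Notch1 (ENSRNOG00000019322) was at 164, 192 and 217 CPM in controls, 292, 335 and 169 CPM in IDPN3w and 132, 188 and 179 CPM in IDPN7w. Its high libraries were IDPN3w replicates 1 and 2, which had fewer detected genes, whereas IDPN3w replicate 3 lay among the controls. The log2 fold change was 0.47 (SE 0.233, adjusted p = 0.366) at 3 weeks and -0.20 (SE 0.232, adjusted p = 0.725) at 7 weeks. Within the libraries with fewer genes the 3-week difference was 0.52 on the scale of log2(CPM + 2), and within the others it was -0.08, so its sign depended on the set. Without the 3 libraries the fitted 3-week value was -0.08.

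Notch2 (ENSRNOG00000018835) stood at 200 ± 19.4 CPM (SD, n = 3) in controls, 200 ± 52.7 CPM in IDPN3w and 174 ± 27.9 CPM in IDPN7w. Notch3 (ENSRNOG00000004346), best known from mural cells of vessels, stood at 20.7 ± 2.97 CPM, 21.6 ± 2.09 CPM and 21.5 ± 4.77 CPM in that order. In both genes the group means differed by less than the largest spread between libraries. For Notch2 the interval of the log2 fold change at 95% confidence ran from -0.41 to 0.40 at 3 weeks and from -0.61 to 0.20 at 7 weeks. For Notch3 it ran from -0.38 to 0.52 and from -0.39 to 0.51. A fall as large as that of Dner lay outside these intervals.

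Hes1 (ENSRNOG00000001720), a transcriptional repressor and common Notch target, was the canonical member with the largest fitted change at 7 weeks. Its level was 33.8, 34.0 and 38.6 CPM in controls, 37.5, 34.2 and 25.8 CPM in IDPN3w and 6.29, 21.0 and 20.4 CPM in IDPN7w. All IDPN7w libraries lay below all other libraries, and replicate 1 lay far below the other two. At 3 weeks the groups overlapped, with a log2 fold change of -0.13 (SE 0.367, adjusted p = 0.915). At 7 weeks it was -1.16 (SE 0.372), a 2.23-fold lower level, and the adjusted p of 0.108 did not pass. DESeq2 called it (adjusted p = 0.0230), and the adjusted p ran from 0.0230 to 0.226 over the settings that leave out no single library. Without IDPN7w replicate 1 the log2 fold change was -0.78. The 3-week difference in Hes1 was -0.10 within the libraries with fewer genes and -0.37 within the others, on the scale of log2(CPM + 2). The control and IDPN7w libraries outside the set with fewer genes differed by -1.15 on the scale of log2(CPM + 2). Against IDPN3w, Hes1 in IDPN7w had a log2 fold change of -1.03 (SE 0.372, adjusted p = 0.261).

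Hey1 (ENSRNOG00000011593), another repressor of the Notch response, was at 3.42, 4.89 and 2.504 CPM in controls, 2.18, 2.66 and 2.74 CPM in IDPN3w and 3.26, 3.52 and 3.65 CPM in IDPN7w. The lowest control lay within the IDPN3w range, and IDPN7w lay within the range of the controls. The log2 fold change was -0.51 (SE 0.405, adjusted p = 0.594) at 3 weeks and -0.05 (SE 0.403, adjusted p = 0.970) at 7 weeks. On the scale of log2(CPM + 2), Hey1 differed at 3 weeks by -0.03 within the libraries with fewer genes and by -0.37 within the others, and at 7 weeks by -0.16 without the 3 libraries. Hes5 (ENSRNOG00000013850) lay near or below the counting floor. It had 2, 0 and 1 counts in controls, 0, 4 and 3 counts in IDPN3w and 1, 0 and 0 counts in IDPN7w. A floor of 3 counts corresponded to 0.0611 to 0.101 CPM, and only 1 library exceeded 3 counts. Hes5 did not pass the filter, and no difference was detectable at this depth. Floors cover counting error only, since amplified reads are not independent molecules.

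**Figure D2:**
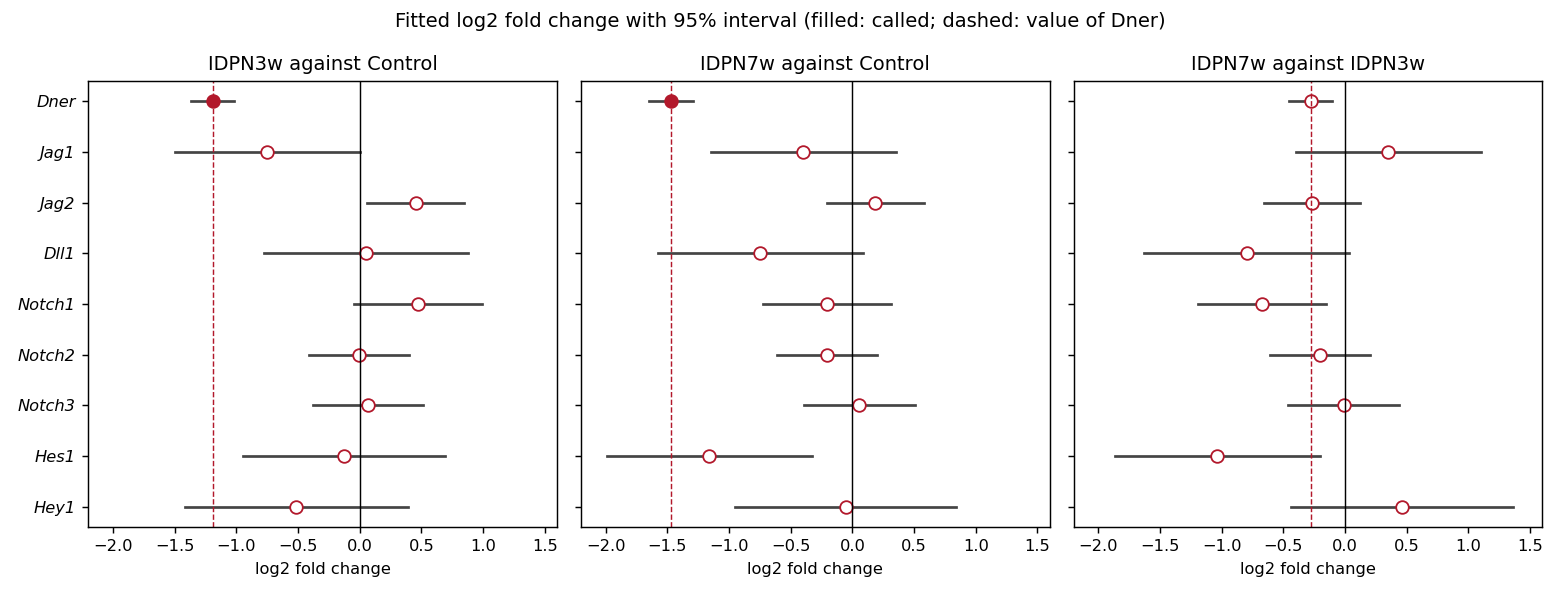
Fitted log2 fold change (horizontal axis) of the 9 tested members in the 3 comparisons, with intervals at 95% confidence. The filled circle marks a called gene and the dashed line the value of Dner, which lies at -1.19 at 3 weeks, -1.47 at 7 weeks and -0.28 between the exposed groups.

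Set against Dner, the log2 fold change of Dner at 3 weeks (-1.19) lay outside the interval of 6 of the 8 other tested members and inside that of Jag1 and Hey1. At 7 weeks its value of -1.47 lay outside the interval of 6 members and inside that of Dll1 and Hes1. The interval of Hes1 at 7 weeks ran from -1.99 to -0.33 and that of Dll1 from -1.58 to 0.08. For these genes a change as large as that of Dner was therefore within the error of the fit. In the comparison of the exposed groups, the small value of Dner lay inside the intervals of all 8 members.

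Each member was also expressed relative to Dner within its own library, as log2 of the ratio of the CPM values, which does not depend on how libraries are scaled. The difference in this ratio between exposed and control rats would be 0 for a gene that fell as Dner did. At 3 weeks the difference was above 0 for 8 of 8 members, from 0.44 for Jag1 to 1.65 for Jag2, and exposed and control libraries did not overlap for 6 of them. Of all other tested genes, 71.1% had ratios to Dner without overlap at 3 weeks, and 96.0% of those with counts in every library compared had a difference above 0. At 7 weeks it was again above 0 for 8 of 8, from 0.12 for Hes1 to 1.66 for Jag2, with no overlap for 6, beside shares of 85.8% and 97.2% over the other genes. The fall of Dner itself enters every ratio, so the 8 values are not independent of each other. Because most genes behave in this way, these counts do not set the members apart.

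For Notch1 the log2 ratio was -1.00 ± 0.23 (SD, n = 3) in controls, 0.61 ± 0.52 in IDPN3w and 0.26 ± 0.29 in IDPN7w. The ratio was higher in every exposed library than in every control. An exact two-sided permutation test of the difference gave p = 0.1 at each time, the smallest value that 3 libraries against 3 allow. Such a p was also obtained for Jag2, Notch2 and Notch3 in both comparisons (exact permutation test, p = 0.1). For Hes1 the ratio was -3.43 ± 0.14 in controls, -2.37 ± 0.25 in IDPN3w and -3.30 ± 0.99 in IDPN7w. At 3 weeks the Hes1 ratios of the groups did not overlap (exact permutation test, p = 0.1). By 7 weeks they overlapped (exact permutation test, p = 1.0), with IDPN7w replicate 1 below all controls and the other two above them. In all, 24 such tests were made, and none could reach the 0.05 threshold. Ratios to Dner were without overlap for 71.1% of all other tested genes at 3 weeks and 85.8% at 7 weeks. These tests therefore largely restate the fall of Dner and do not set the members apart.

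**Figure D3:**
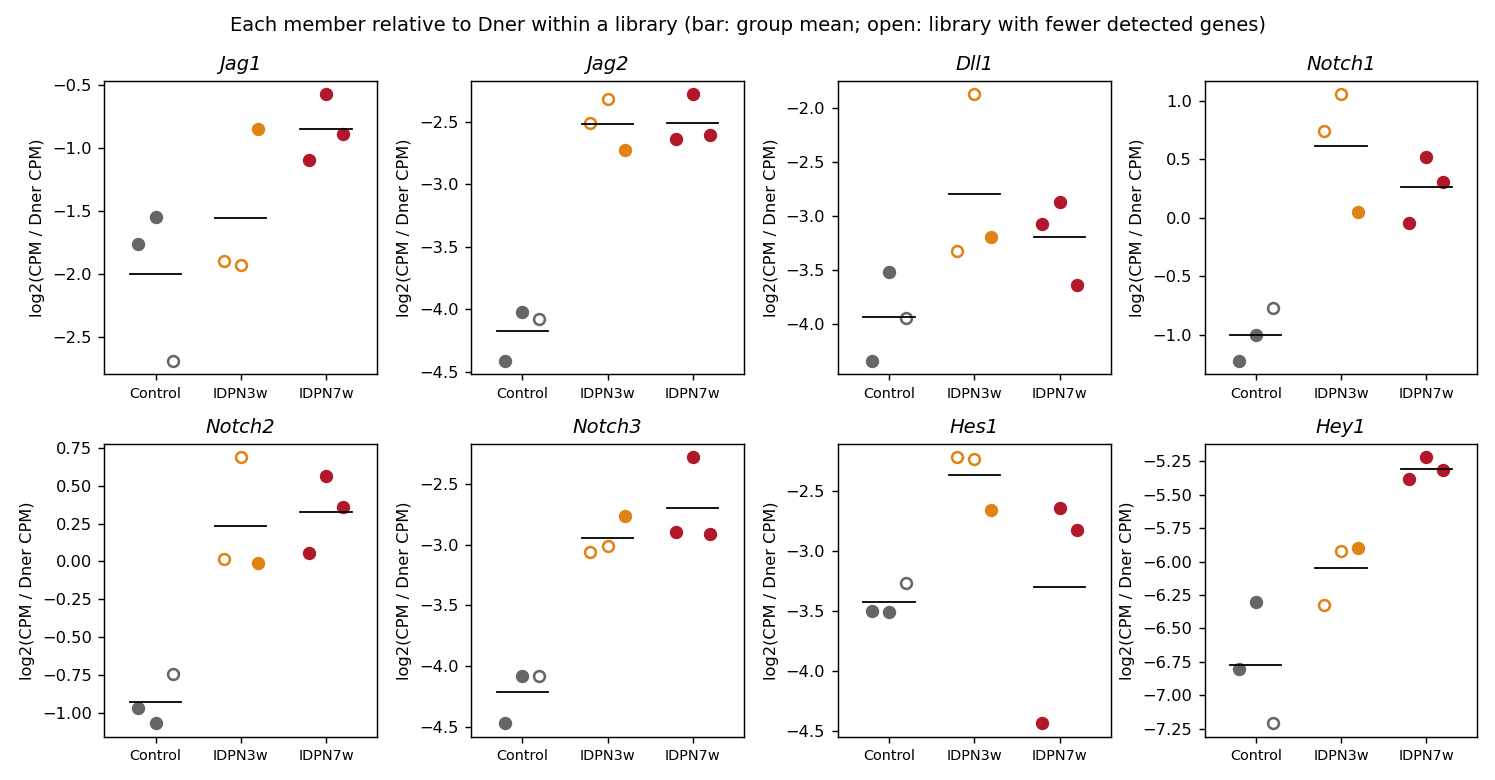
Log2 of each member's CPM over the Dner CPM of the same library (vertical axes, which differ between genes) in Control, IDPN3w and IDPN7w, with group means as bars and the 3 libraries with fewer detected genes as open circles. Exposed libraries lie above controls for Jag2, Notch1, Notch2 and Notch3 at both times, and the Hes1 values of IDPN7w spread around the controls. Of all other tested genes, 71.1% at 3 weeks and 85.8% at 7 weeks also had ratios without overlap.

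Between the exposed groups 0 of the 9 tested members were called by edgeR, against 0.483% of all tested genes. The unadjusted p was under 0.05 for 3 members (Dner, Notch1 and Hes1), against 13.8% of all tested genes, and DESeq2 also called 0, against 3.84% of the genes to which it gave an adjusted p. Groups did not overlap for Dner and Hes1, lower in IDPN7w, and for Hey1, higher in IDPN7w, where 21.0% of all tested genes had groups without overlap. For Notch1 the log2 fold change was -0.67 (SE 0.233, adjusted p = 0.245). It was called only when IDPN3w replicate 3 was left out (log2 fold change -0.91, adjusted p = 0.0339, in a range from 0.0339 to 0.634 over the libraries left out in turn). That step leaves the libraries with fewer genes as the whole of the IDPN3w group.

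The rest of the pathway was followed with a list of 57 genes, of which 53 were found by symbol and 48 passed the filter. They comprised other ligands, Notch4, enzymes that add sugars to the receptors, ligases that act on ligands, the proteases that cut receptors, the nuclear complex, corepressors, inhibitors and turnover factors, and other Hes and Hey genes. At 3 weeks 1 of 48 was called lower and 0 were called higher. At 7 weeks 2 were called lower and 1 higher. Between the exposed groups edgeR called 0, with 9 at an unadjusted p under 0.05, and DESeq2 called 2 (Dtx3l and Heyl). In that comparison 13.8% of all tested genes had such a p, and DESeq2 called 3.84% of the genes to which it gave an adjusted p. The median log2 fold change of the 48 genes was 0.03 at 3 weeks and 0.03 at 7 weeks. The edgeR calls at 3 and 7 weeks are shares near those over all tested genes.

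Fbxw7 (ENSRNOG00000010889), part of a ubiquitin ligase that marks the Notch intracellular domain and other proteins for degradation, fell at both times. It was at 41.2, 48.1 and 37.7 CPM in controls, 17.3, 8.45 and 11.6 CPM in IDPN3w and 11.2, 11.1 and 14.0 CPM in IDPN7w. Exposed and control libraries did not overlap, and the exposed groups overlapped each other. The log2 fold change was -1.76 (SE 0.257, adjusted p = 0.0108) at 3 weeks and -1.81 (SE 0.257, adjusted p = 0.00304) at 7 weeks. The 3-week call was lost without Control replicate 2 (log2 fold change -1.66, adjusted p = 0.0515). The adjusted p ran from 0.00554 to 0.0515 over the libraries left out in turn. In a setting described below that left a single IDPN3w library, the 3-week value was -1.31 and the call was also lost. Fbxw7 was also in a gene list that the study drew up from these libraries together with those of its other experiments, so its fall is not independent evidence.

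Dlk2 (ENSRNOG00000018949), a Delta-like membrane protein described as an inhibitor of Notch, was at 42.0, 48.4 and 42.7 CPM in controls, 39.0, 29.7 and 28.7 CPM in IDPN3w and 24.2, 25.4 and 25.5 CPM in IDPN7w. The 3 groups followed each other without overlap. At 7 weeks Dlk2 fell, with a log2 fold change of -0.83 (SE 0.153, adjusted p = 0.0108). The 3-week value of -0.45 (SE 0.153, adjusted p = 0.183) did not pass. The 7-week call was lost without Control replicate 2 (log2 fold change -0.76, adjusted p = 0.0527) or IDPN7w replicate 1 (-0.80, adjusted p = 0.0532). The adjusted p ran from 0.00432 to 0.0532 over the libraries left out in turn.

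Dtx3l (ENSRNOG00000023400), a ubiquitin ligase of the Deltex family, rose at 7 weeks. It was at 40.3, 38.2 and 53.8 CPM in controls, 56.0, 28.8 and 46.8 CPM in IDPN3w and 135, 98.9 and 94.4 CPM in IDPN7w. Every IDPN7w library lay above all the others, and Control and IDPN3w overlapped. The log2 fold change was 1.31 (SE 0.247, adjusted p = 0.0120) at 7 weeks, -0.01 (SE 0.244, adjusted p = 0.994) at 3 weeks and 1.32 (SE 0.247, adjusted p = 0.0539) between the exposed groups. The 7-week call was lost without Control replicate 1 (log2 fold change 1.25, adjusted p = 0.0572) or Control replicate 2 (1.22, adjusted p = 0.0585). It was also lost without IDPN7w replicate 1 (1.13, adjusted p = 0.0553). The adjusted p ran from 0.00389 to 0.0585 over the libraries left out in turn.

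By role, the 4 tested genes of the nuclear complex, which include Rbpj, had a median log2 fold change of 0.13 at 3 weeks and 0.22 at 7 weeks, and none was called by edgeR or DESeq2. The 8 tested protease genes, among them Adam10 and the presenilins, ranged from -0.36 to 0.40 at 3 weeks and from -0.49 to 0.42 at 7 weeks, with 0 called by both tools. The 6 genes that add sugars to Notch ranged from -0.42 to 0.19 and from -0.31 to 0.43, also with 0 called by both. Of the other Hes and Hey genes, 3 were tested and 0 were called in either comparison with controls by edgeR or DESeq2. One of them, Hey2, was lower in every IDPN7w library than in every control (log2 fold change -0.62, SE 0.297, adjusted p = 0.291), and edgeR called it lower at 7 weeks when the 3 libraries with fewer genes were left out. An unadjusted p under 0.05 was found for 15.8% of all tested genes at 3 weeks and 19.3% at 7 weeks. At that level there were 0 genes of the nuclear complex at both times, 2 protease genes at 3 weeks and 3 at 7 weeks, 0 and 1 of the sugar enzymes, and 0 and 1 of the Hes and Hey genes.

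**Figure D4:**
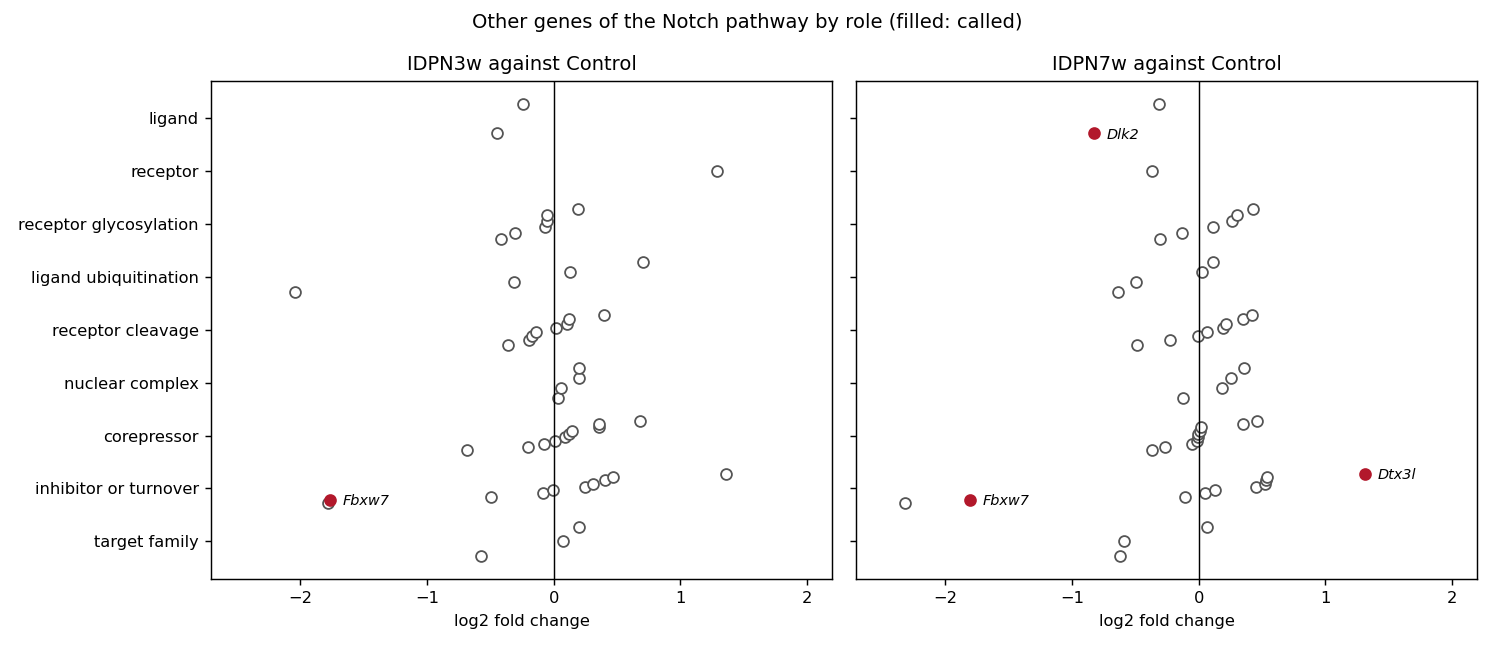
Fitted log2 fold change (horizontal axis) of the 48 tested genes of the pathway list, grouped by role, at 3 and at 7 weeks against the same controls. Filled circles are called genes, which were Fbxw7 at 3 weeks and Fbxw7, Dlk2 and Dtx3l at 7 weeks.

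The summed markers of hair cells and of supporting cells were lower at both times, as Dner was. Of 13 tested hair cell markers, 4 were called lower at 3 weeks and 7 at 7 weeks, with 0 higher. Over all tested genes 1.21% and 3.13% were called lower. The median log2 fold change of these markers was -0.55 and -1.00. At 3 weeks Gfi1 (log2 fold change 0.55) and Cib2 (0.10) lay above 0, without passing the test. At 7 weeks all 13 lay below 0. The summed level of hair cell markers was 2015, 2184 and 2103 CPM in controls, 1441, 1461 and 1155 CPM in IDPN3w and 1283, 1111 and 1267 CPM in IDPN7w. The exposed libraries all lay below the controls, and the exposed groups overlapped. Their most abundant gene over the 9 libraries was Otof, at 715, 772 and 622 CPM in controls, 390, 377 and 293 CPM in IDPN3w and 362, 323 and 367 CPM in IDPN7w. In every IDPN7w library Myo6 (407, 327 and 411 CPM) lay above Otof. Its log2 fold change of -0.48 (SE 0.0963, adjusted p = 0.0163) at 7 weeks was smaller in size than that of Otof and below the fold threshold. The labelled tissue thus held its defining markers, and no marker of any list was at 0 in all libraries.

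Supporting cell markers, of which 12 were tested, had 1 called lower at 3 weeks and 4 at 7 weeks, with 0 called higher. Over all tested genes 1.21% and 3.13% were called lower. The fitted change was below 0 for 10 of the 12 markers at 3 weeks and for 9 at 7 weeks. Lgr5 was higher in every IDPN3w library than in every control (log2 fold change 1.15, SE 0.315, adjusted p = 0.105), without passing the test, and Sox9 did not fall at 7 weeks (log2 fold change 0.23). The summed level of all 12 was 13851, 13748 and 14120 CPM in controls, 8813, 10499 and 8436 CPM in IDPN3w and 5872, 8225 and 7393 CPM in IDPN7w. Otog, a gene of the otolithic and cupular membranes, was their most abundant gene. It supplied 8340, 8545 and 8535 CPM of these sums in controls and 2477, 4439 and 3683 CPM in IDPN7w. The sum lay below the controls in every exposed library. Without Otog it was 5511, 5203 and 5585 CPM in controls, 4043, 4789 and 4895 CPM in IDPN3w and 3395, 3787 and 3709 CPM in IDPN7w, with the same separation.

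Of 5 Schwann cell markers, 0 were called at 3 weeks by edgeR or DESeq2, with 0 at an unadjusted p under 0.05. At 7 weeks edgeR called 2 lower and DESeq2 called 5, and all 5 were lower without overlap (median log2 fold change -1.08). Over all tested genes edgeR called 3.13% lower and 2.00% higher at 7 weeks, and 34.3% had groups without overlap. DESeq2 called 8.73% of the genes to which it gave an adjusted p. The sum of the 5 Schwann cell markers was 5112, 6418 and 4902 CPM in controls, 3749, 5060 and 5121 CPM in IDPN3w and 1551, 3253 and 3181 CPM in IDPN7w. All IDPN7w libraries lay below all others and replicate 1 was the lowest, as for Hes1. Of 8 macrophage markers, edgeR called 1 higher at 7 weeks and DESeq2 called 3, and 7 were higher without overlap (median log2 fold change 1.39). The macrophage markers summed to 112, 60.4 and 111 CPM in controls, 49.8, 126 and 45.0 CPM in IDPN3w and 245, 205 and 192 CPM in IDPN7w, led by Csf1r. Every IDPN7w library was above all others, as for Dtx3l. The remaining libraries were ordered differently, since IDPN3w replicate 2 had the highest of their macrophage sums and the lowest Dtx3l level. The part of these cell types in the results for Dner, Hes1 and Dtx3l was not tested.

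Of the remaining lists, neuron markers had 1 of 6 called lower at each time. At 7 weeks 1 of 9 endothelial markers was called lower and 1 higher, 1 of 7 mural markers was called lower and 1 of 6 fibroblast markers was called lower. At 3 weeks edgeR called 0 of these 3 lists, with 2, 1 and 2 genes at an unadjusted p under 0.05, and DESeq2 called 1 fibroblast marker. Of 4 melanocyte markers 0 were called by edgeR or DESeq2, with 0 at an unadjusted p under 0.05 at 3 weeks and 1 at 7 weeks. Of 3 erythrocyte markers edgeR called 0, with 1 at an unadjusted p under 0.05 at 3 weeks, which DESeq2 called, and 0 at 7 weeks. Over all tested genes edgeR called 1.65% at 3 weeks and 5.13% at 7 weeks, and 15.8% and 19.3% had an unadjusted p under 0.05. DESeq2 called 5.18% and 8.73% of the genes to which it gave an adjusted p.

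**Figure D5:**
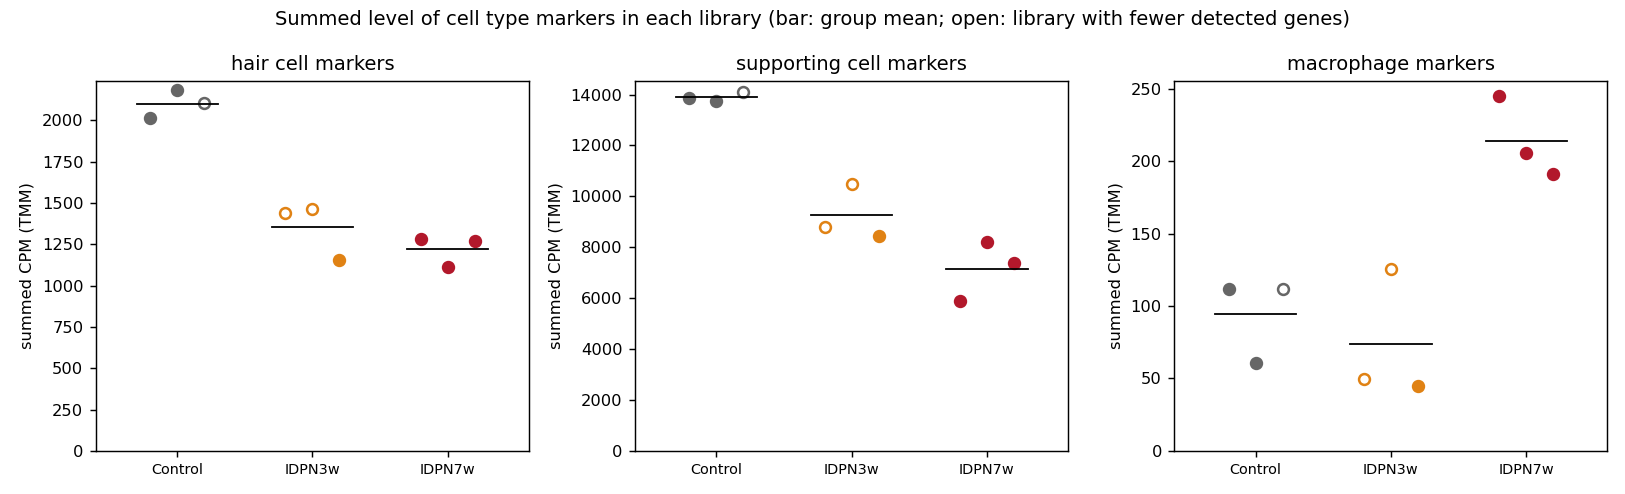
Summed CPM (vertical axes, from 0) of the markers of hair cells, supporting cells and macrophages in every library, with group means as bars and the 3 libraries with fewer detected genes as open circles. Hair cell and supporting cell sums are lower in all exposed libraries, and macrophage sums are highest in IDPN7w.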

How the data were processed

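The authors mapped reads with STAR (version 2.5.3a in the submitters' processing notes) to the rat genome Rnor6.0 and quantified genes with RSEM (1.3.0 in those notes, while the methods of the study give another version). The deposited values are expected counts (estimated counts) per gene as whole numbers, without normalization. Columns were matched to rats by library name. Counts were analysed in R 4.3.3 with edgeR 4.0.16, using filterByExpr, TMM factors and the robust quasi-likelihood test fitted once to all 9 libraries with the 3 group means. Standard errors and intervals come from that fit. To its 6 residual degrees of freedom the test adds prior degrees of freedom shared between genes, with a median of 4.07. P-values were adjusted by Benjamini-Hochberg over all tested genes. DESeq2 1.42.0 was an alternative. Permutation tests used scipy 1.17.1, and the scripts were tested on simulated data. Genes named are the 10 members, pathway genes called in any comparison, the most abundant markers and the 5 genes most like Dner. Adam10, Cib2, Dll3, Gfi1, Hey2, Lgr5, Myo6, Sox9, Tle2, Rbpj, Heyl, Hdac1, Notch4 and Nrarp were named after their values were seen. Members and lists were chosen with earlier results of these data known. The results of 1 marker gene are not reported here.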

Additional observations from a re-analysis of the deposited data

How the results depend on the processing

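Dner was called lower at 3 and at 7 weeks under every setting run, with a log2 fold change from -1.24 to -1.12 and from -1.49 to -1.34 over 10 alternative fits. The number of members called at 3 weeks was 1 throughout. At 7 weeks it was 2 with DESeq2 (Dner and Hes1), 2 with the libraries with fewer genes as a covariate and 2 with them left out (Dner and Jag1 in both). In IDPN7w against IDPN3w it was 0, and 0 to 1 with libraries left out in turn. Of the other pathway genes, 0 to 1 were called at 3 weeks, 1 to 3 at 7 weeks and 0 to 3 between the exposed groups with libraries left out in turn. Without the libraries with fewer genes 2 were called at 3 weeks (Fbxw7 and Tle2) and 6 at 7 weeks (Fbxw7, Dlk2, Dll3, Hey2 and Tle2 lower and Dtx3l higher). For IDPN7w against IDPN3w DESeq2 called 2, library totals alone gave 2 and no filter on counts gave 1. The cause of these shifts was not tested.

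Over all genes, 256 were called at 3 weeks, 796 at 7 weeks and 75 between the exposed groups. DESeq2 called 826, 1392 and 585. Fits of only the 2 groups compared called 118, 1249 and 46. A fold change above 2 left 159 and 480 at 3 and 7 weeks. Without the libraries with fewer genes 1563 were called at 7 weeks, and with them as a covariate 37 between the exposed groups. With libraries left out in turn the counts ran from 75 to 439, from 432 to 969 and from 39 to 445.

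The plan had named Control replicate 1 and IDPN3w replicates 2 and 3 as the libraries that stand apart, under another numbering of the rats. It was run as written. As a covariate that set gave 167 genes at 3 weeks and 29 between the exposed groups. Left out, it gave 423 and 382, with 0 pathway genes called at 3 weeks (Fbxw7 at -1.31, adjusted p = 0.0641, in a range from 1.12e-08 to 0.0641). The set with fewer detected genes in this table was chosen after seeing the data. Leaving out either set leaves 1 IDPN3w library, which is assumed to vary like the other groups, so the lost Fbxw7 call, and signs that turned in comparisons involving IDPN3w when a set was left out, rest on that library.

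Log2 fold changes that turned sign were not called. At 3 weeks Notch2 was 0.00046 with DESeq2, 0.00063 with RLE size factors and 0.0039 with library totals alone, where Dtx3l was 0.014. Dll1 was -0.099 and -0.55 with the libraries with fewer genes as a covariate and left out, and Notch1 -0.079 and Dtx3l 0.25 with them left out. With the planned set as a covariate Dll1 was -0.0052 and Dtx3l 0.096. With it left out Dll1 was -0.72, Notch3 -0.093, Hes1 0.046 and Dtx3l 0.28. At 7 weeks Hey1 was 0.073 with library totals alone and Notch3 was -0.055 without the planned set. Between the exposed groups, library totals alone gave Notch3 0.11 and Fbxw7 0.075, and leaving out the planned set gave Notch3 0.039. There the libraries with fewer genes as a covariate gave Jag1 -0.27 and Notch2 0.028, and leaving them out gave Jag1 -0.25, Notch2 0.091 and Fbxw7 0.051.

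With libraries left out in turn, the 3-week value ran from -0.53 to 0.30 for Dll1, from -0.24 to 0.12 for Notch2, from -0.047 to 0.14 for Notch3, from -0.24 to 0.015 for Hes1 and from -0.22 to 0.22 for Dtx3l. The 7-week value ran from -0.14 to 0.16 for Notch3 and from -0.26 to 0.23 for Hey1. Between the exposed groups it ran from -0.33 to 0.036 for Notch2, from -0.21 to 0.094 for Notch3 and from -0.26 to 0.27 for Fbxw7.

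Relative to Dner, the difference between exposed and control rats stayed above 0 for the 8 members under every setting run, except Hes1 at 7 weeks, which ran from -0.21 to 0.69 with libraries left out in turn. In the same way the 3-week difference ran from 0.089 to 0.67 for Jag1 and from 0.68 to 1.41 for Dll1. Between the exposed groups it ran from -0.0995 to 0.11 for Jag2, from -0.67 to 0.060 for Dll1 and from -0.024 to 0.32 for Notch2. Without the libraries with fewer genes it was -0.0048 for Jag1 and 0.21 for Notch1, and without the planned set it was 0.13 for Dll1.

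No paired analysis was run, because the replicate numbers were given in accession order and pair no rats. The sample titles hold another number, whose meaning is not given. All controls share 1 such number, and in each exposed group the libraries other than replicate 1 share one of their own. Only IDPN3w replicate 1 and IDPN7w replicate 1 share one across groups. The number therefore cannot serve as a block against controls, and whether rats that share it are more alike was not tested. Between the exposed groups a block would rest on that pair alone, and it was not fitted. Hes5 lay near the counting floor, and each group had 3 rats.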

Other observations

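A few pathway genes that edgeR did not call under the planned fit stood out once their values had been seen. Heyl, a Hey-family repressor, was at 249, 224 and 321 CPM in controls, 330, 300 and 284 CPM in IDPN3w and 118, 212 and 197 CPM in IDPN7w. As with Hes1, all IDPN7w libraries lay below all others and replicate 1 was the lowest. Its log2 fold change was -0.59 (SE 0.205, adjusted p = 0.139, edgeR) at 7 weeks and -0.79 (SE 0.206, adjusted p = 0.147, edgeR) in IDPN7w against IDPN3w, where DESeq2 called it lower. The corepressor subunit Hdac1 had an adjusted p of 0.0359 at 7 weeks (edgeR), but its fold change of 1.38 lay under the threshold of 1.5. With library totals alone, or with no fold change threshold, Hdac1 was called higher.

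Notch4, a receptor best known from endothelial cells, was at 7.12, 3.35 and 7.43 CPM in controls, 24.0, 17.0 and 2.80 CPM in IDPN3w and 2.30, 6.33 and 5.24 CPM in IDPN7w. Its high libraries were IDPN3w replicates 1 and 2, as for Notch1, and the third IDPN3w library lay below the controls. Nrarp, a feedback inhibitor of Notch that is itself a target, was at 1.29, 1.57 and 0.563 CPM in controls, 3.71, 3.27 and 1.81 CPM in IDPN3w and 0.815, 1.87 and 2.23 CPM in IDPN7w. Every IDPN3w library lay above every control, and the log2 fold change of 1.36 (SE 0.651, adjusted p = 0.349, edgeR) did not pass.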
